A study of Mus musculus with 10 samples.

Results

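The genes described here are 10 genes of hepatic iron handling, chosen by name from the 43629 Ensembl genes of a liver RNA-seq count table. They are the iron hormone gene Hamp, the genes of its regulators Bmp6, Id1, Smad7, Tmprss6 and Tfr2, and the iron uptake, export and storage genes Tfrc, Slc40a1, Fth1 and Ftl1. Each symbol matched 1 Ensembl identifier through GENCODE M21 on GRCm38, and all 10 were among the 14143 genes that passed the filter on low counts. Livers came from 10 adult male mice of a genetically engineered lung cancer model (Lkb1 flox/flox among its alleles, backcrossed to FVB), in which intranasal adenovirus carrying Cre under the CMV promoter starts tumours. All 10 mice shared the genotype and received the virus, so no tumour-free liver is among the controls, and the CMV promoter does not limit Cre to 1 cell type. Tumour load was not measured directly in this model. The 5 mice without cancer anorexia–cachexia syndrome (NCACS, mice 11 to 15) had weight changes of -4, -8, -11, -3 and -14%, and the 5 mice with the syndrome (CACS, mice 16 to 20) of -32, -29, -33, -30 and -29%. The study assigned mice to groups by this loss from peak weight, and each liver came from a separate mouse. Iron, hepcidin protein and blood counts were not analysed here.

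Hepcidin, the peptide encoded by Hamp, is made mainly by hepatocytes and released into blood, where it binds the iron exporter ferroportin (Slc40a1) and causes its degradation, which lowers the entry of iron into plasma. Its transcription is driven by bone morphogenetic proteins from sinusoidal endothelial cells acting through SMAD proteins in hepatocytes, and by IL-6 acting through STAT3 during inflammation. Iron inside cells is stored in ferritin, a shell of heavy (Fth1) and light (Ftl1) chains, and cellular iron acts through iron regulatory proteins that bind hairpins in mRNA: binding to a hairpin in the 5′ untranslated region holds back translation, and binding to hairpins in the 3′ untranslated region of Tfrc protects that mRNA from decay.

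The promoter of Hamp is shown because it holds letters of both inputs within a short stretch, and that of its neighbouring copy Hamp2 because the copy was measured in the same livers at a far lower level. The RefSeq windows on GRCm38.p6, taken from the reference strain and not from FVB, are the 250 bases before each start site, chr7:30944030-30944279 for Hamp and chr7:30924182-30924431 for Hamp2, both on the reverse strand. Capitals mark the BMP-responsive motif GGCGCC, or the bases aligned to it, followed by a match to the STAT motif TTCNNNGAA.
Hamp: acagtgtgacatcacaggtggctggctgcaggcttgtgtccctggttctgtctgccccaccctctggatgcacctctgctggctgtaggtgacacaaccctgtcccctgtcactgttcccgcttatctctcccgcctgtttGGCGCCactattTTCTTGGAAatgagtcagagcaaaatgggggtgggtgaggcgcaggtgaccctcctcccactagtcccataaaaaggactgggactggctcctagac
Hamp2: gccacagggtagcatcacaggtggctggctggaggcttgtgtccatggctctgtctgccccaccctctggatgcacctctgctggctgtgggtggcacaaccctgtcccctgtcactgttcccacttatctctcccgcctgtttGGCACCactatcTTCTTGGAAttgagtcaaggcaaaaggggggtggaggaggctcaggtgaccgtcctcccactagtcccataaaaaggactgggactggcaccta

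In the Hamp window the BMP-responsive motif began 109 bases and the STAT motif 97 bases before the start site. Over 247 aligned bases the promoters were 91.9% identical, with 20 substitutions, of which G145A (Hamp base first, counted from 1 at the 5′ end of the Hamp window) lay inside the BMP-responsive motif. The Hamp2 window had the STAT motif and not the letters GGCGCC. Both motifs read the same on either strand and did not overlap each other. Among all 32851 RefSeq promoter windows, which run on a little past the start site and were searched in the same way for the members, 9.59% held GGCGCC and 7.02% held TTCNNNGAA. Of the 10 genes, 6 had a window, and besides Hamp only Tfrc held either motif, a GGCGCC that began 89 bases before 1 of its 2 start sites. These are matches of letters and not measured binding sites.

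The iron-responsive hairpins of 4 members are shown because they carry the post-transcriptional control of these mRNAs, which acts on mRNA decay for Tfrc and on translation for the others, and translation was not measured. They were found as C, 5 bases, CAGTG followed by A, C or T, and 5 bases that pair with the first 5, a pattern present in 1.01% of 21877 protein-coding genes of GENCODE M21. The pattern was not found in transcripts of Hamp, Tfr2, Tmprss6, Id1 or Bmp6. It asks for 5 full pairs and this loop, so it can miss hairpins that depart from it, in these transcripts and in Tfrc. Each line gives 30 bases of a transcript on the strand of the gene, with the hairpin loop in capitals.
Fth1, 5′ untranslated region, chr19:9982732-9982761: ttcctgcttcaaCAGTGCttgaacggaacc
Ftl1, 5′ untranslated region, chr7:45459778-45459807: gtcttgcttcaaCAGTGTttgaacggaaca
Slc40a1, 5′ untranslated region, chr1:45925464-45925493: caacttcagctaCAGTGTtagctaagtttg
Tfrc, 3′ untranslated region, chr16:32631219-32631248: aattatcggaagCAGTGCcttccataatta
Tfrc, 3′ untranslated region, chr16:32631598-32631627: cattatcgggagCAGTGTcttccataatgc
Tfrc, 3′ untranslated region, chr16:32631663-32631692: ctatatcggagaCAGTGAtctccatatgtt
Tfrc, 3′ untranslated region, chr16:32631710-32631739: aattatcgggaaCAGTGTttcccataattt

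Between CACS and NCACS livers, 0 of the 10 genes passed the threshold of 0.05 on the Benjamini-Hochberg adjusted p of the edgeR quasi-likelihood fit, against 3.8% of all 14143 tested genes. The count was also 0 with DESeq2, where 8.82% of tested genes passed, and with limma-voom, where 3.6% passed. At an unadjusted p-value under 0.05, 1 member passed (Tfrc), against 21.6% of all tested genes. The groups overlapped for all 10 genes, whereas 7.07% of all tested genes had groups that did not. The median log2 fold change (CACS minus NCACS on the log2 scale) of the members was 0.28, against -0.01 over all tested genes, with 6 values above 0 and 4 below. Total counts per liver lay between 31459179 and 40746178, and the lowest count of a member in any liver was 79, for Bmp6. Hepatocyte markers were abundant in all livers, with Alb the highest, and 0 of 8 differed at the threshold, with a summed level of 79000 to 128000 CPM (read counts scaled to the TMM-adjusted size of each library) in NCACS and 121000 to 148000 CPM in CACS livers. NCACS mice 13 and 14 stood at opposite ends for several of the genes below, and values without them are given for Hamp, Id1, Smad7, Slc40a1 and, for mouse 14, Bmp6.

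**Figure D1:**
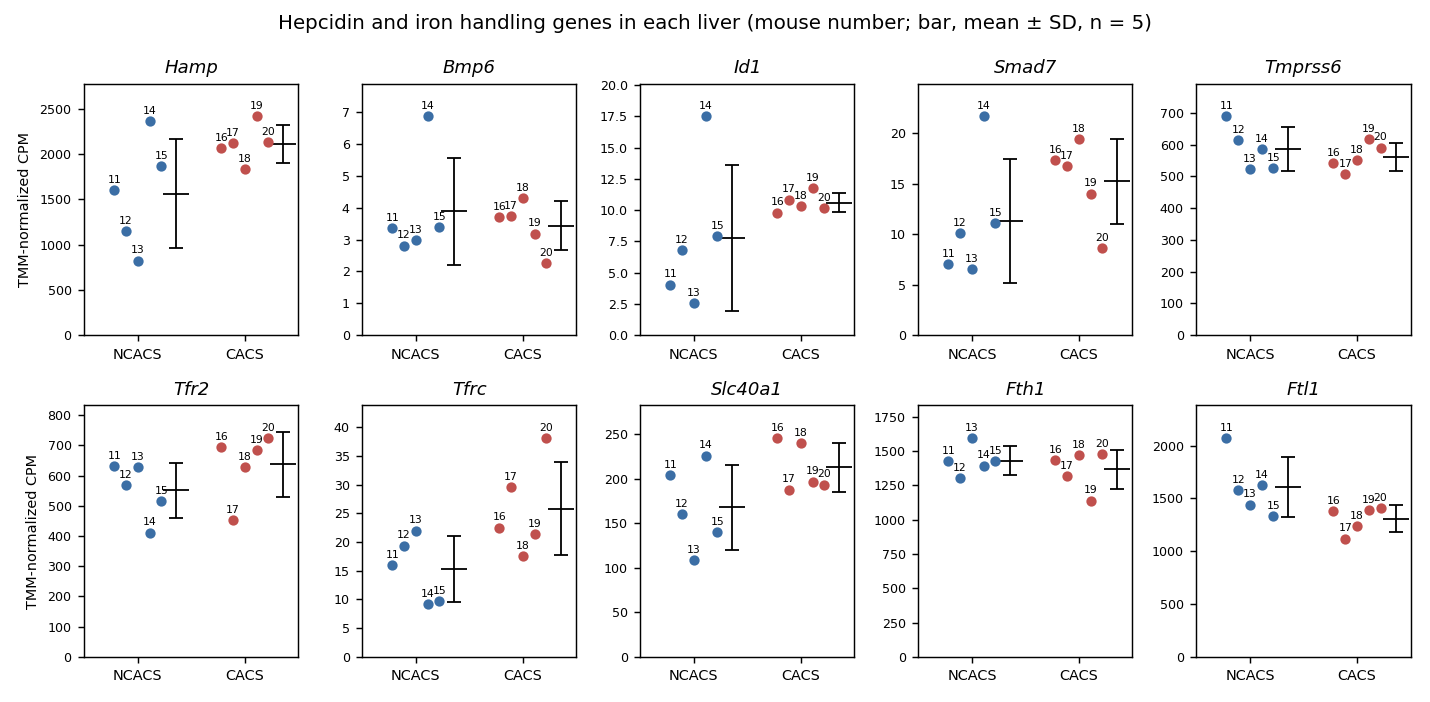
TMM-normalized CPM (counts scaled to library size, linear axis from 0) of the 10 genes in 5 NCACS and 5 CACS livers. Each point is a liver with its mouse number, and the bar to its right is the group mean with SD (n = 5). The CACS points overlap the NCACS points for every gene, and CACS points lie close together for Hamp and Id1.

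Hamp (ENSMUSG00000050440, chromosome 7, 30942368 to 30944032, reverse strand) was the most abundant of the 10 per length of transcript. Its level was 1604, 1148, 822.5, 2364 and 1863 CPM in NCACS mice 11 to 15, and 2061, 2121, 1830, 2415 and 2130 CPM in CACS mice 16 to 20. All 5 CACS livers lay above the NCACS median of 1604 CPM, and 1 of them lay above the highest NCACS liver. NCACS mice averaged 1560 ± 603 CPM and CACS mice 2111 ± 209 CPM (SD, n = 5 per group). In CACS relative to NCACS livers the difference was 0.44 on the log2 scale (SE 0.24, 95% interval -0.10 to 0.97, edgeR adjusted p = 0.323), which did not pass the threshold. Permuting the group labels of the log2 CPM exactly, two-sided, gave p = 0.0952, where 0.00794 is the smallest p that 5 against 5 livers allow. The NCACS livers were the more spread, with 2.87-fold between the highest and the lowest liver, against 1.32-fold among CACS livers. That difference in spread was not tested. On the log2 scale the difference was 0.28 without NCACS mouse 13 and 0.64 without NCACS mouse 14.

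Hamp2, which lies beside Hamp on chromosome 7, averaged 4.97 ± 5.09 CPM over NCACS mice and 5.24 ± 4.82 CPM over CACS mice (SD, n = 5 per group). The transcripts were 94.6% identical over 410 aligned bases, so some reads may fit both genes. Hamp2 counts were 0.283% of Hamp counts, and adding them gave a log2 fold change of 0.4352 for Hamp. How reads that fit both genes were counted is not given in the sources used here. If such reads were left out of both counts, this sum cannot show their effect. Hamp2 had 13.5 CPM in NCACS mouse 14 and 13.2 CPM in CACS mouse 17, and between 0.906 and 5.84 CPM in the other 8 livers. Its log2 fold change was 0.08 (95% interval -1.54 to 1.69, edgeR adjusted p = 0.965). A long non-coding gene on the opposite strand overlaps both genes in GENCODE M21. The libraries were stranded, but the strand setting of the counting is not given in the sources used here.

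Bmp6 (ENSMUSG00000039004, chromosome 13, 38345107 to 38500302, forward strand) encodes the main endothelial ligand that raises hepcidin in response to liver iron. Its level was 3.35, 2.81, 2.98, 6.87 and 3.40 CPM in NCACS mice 11 to 15, and 3.70, 3.73, 4.31, 3.18 and 2.26 CPM in CACS mice 16 to 20. NCACS mouse 14 stood alone at the top, and the other 9 livers lay between 2.26 and 4.31 CPM. The fitted log2 difference was -0.18 (SE 0.27, 95% interval -0.76 to 0.41, edgeR adjusted p = 0.754) and turned to 0.13 without that mouse. Markers of sinusoidal endothelium, its main source in liver, summed to 277 to 443 CPM in NCACS and 328 to 436 CPM in CACS livers, with 0 of 10 past the threshold and none at 0, and NCACS mouse 14 was the highest of all livers by that sum too. The part of this in the Bmp6 values was not tested. The gene overlaps Txndc5 and an antisense gene on the opposite strand, so its low counts carry that uncertainty.

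Id1 (ENSMUSG00000042745, chromosome 2, 152736251 to 152737410, forward strand) encodes an inhibitor of helix-loop-helix transcription factors and is a direct target of BMP-SMAD signalling that is widely used as its readout. Its level was 4.04, 6.82, 2.59, 17.5 and 7.94 CPM in NCACS mice 11 to 15, and 9.79, 10.8, 10.3, 11.8 and 10.2 CPM in CACS mice 16 to 20. The 5 CACS livers fell within 1.20-fold of each other and lay above 4 of the 5 NCACS livers, whereas the NCACS livers spanned 6.76-fold. In CACS relative to NCACS livers the difference was 0.44 on the log2 scale (SE 0.39, 95% interval -0.42 to 1.30, edgeR adjusted p = 0.550). Without NCACS mouse 14 it was 0.98 (edgeR adjusted p = 0.0852), still short of the threshold, and without NCACS mouse 13 it was 0.22.

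Smad7 (ENSMUSG00000025880, chromosome 18, 75367529 to 75395935, forward strand) encodes an inhibitory SMAD, induced by the pathway it restrains, that lowers hepcidin transcription. NCACS mice 11 to 15 had 7.06, 10.1, 6.53, 21.7 and 11.1 CPM, and CACS mice 16 to 20 had 17.4, 16.7, 19.4, 14 and 8.59 CPM. CACS mouse 20 was low in its group, and NCACS mouse 14 was the highest of all 10 livers. On the log2 scale the difference was 0.43 (SE 0.32, 95% interval -0.27 to 1.13, edgeR adjusted p = 0.465), 0.81 without NCACS mouse 14 (edgeR adjusted p = 0.102) and 0.29 without NCACS mouse 13 (edgeR adjusted p = 0.646).

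The same mice stood at the ends of several of these genes. NCACS mouse 14 was the highest NCACS liver for 5 of the 10 members (Hamp, Bmp6, Id1, Smad7 and Slc40a1), and NCACS mouse 13 the lowest for 5 (Hamp, Id1, Smad7, Slc40a1 and Tmprss6). After the group means were subtracted, the Pearson r of log2 CPM between Hamp and Id1 over the 10 livers was 0.82 (Spearman's rho 0.64). Without NCACS mice 13 and 14, whose centred Hamp lay farthest from the median, r was 0.09 over 8 livers. Without NCACS mice 12 and 13 it was 0.86. Leaving out the most extreme livers narrows the range of Hamp, so these values cannot decide whether the relation rested on 2 mice. For Smad7 and Hamp r was 0.56 (rho 0.20), and -0.20 without NCACS mice 13 and 14. For Bmp6 and Hamp it was 0.55 (rho 0.32), and 0.01 without them. For Atoh8, another SMAD target that promotes Hamp transcription, it was 0.76 (rho 0.68), and 0.60 without them. For Id2 it was 0.37 (rho 0.45), and 0.19 without them, and for Id3 0.48 (rho 0.49), and 0.14 without them. For Tfrc and Hamp it was -0.68 (rho -0.68), and -0.38 without them. Each pair shares its library and its scaling factor, and these values describe 10 livers only.

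**Figure D2:**
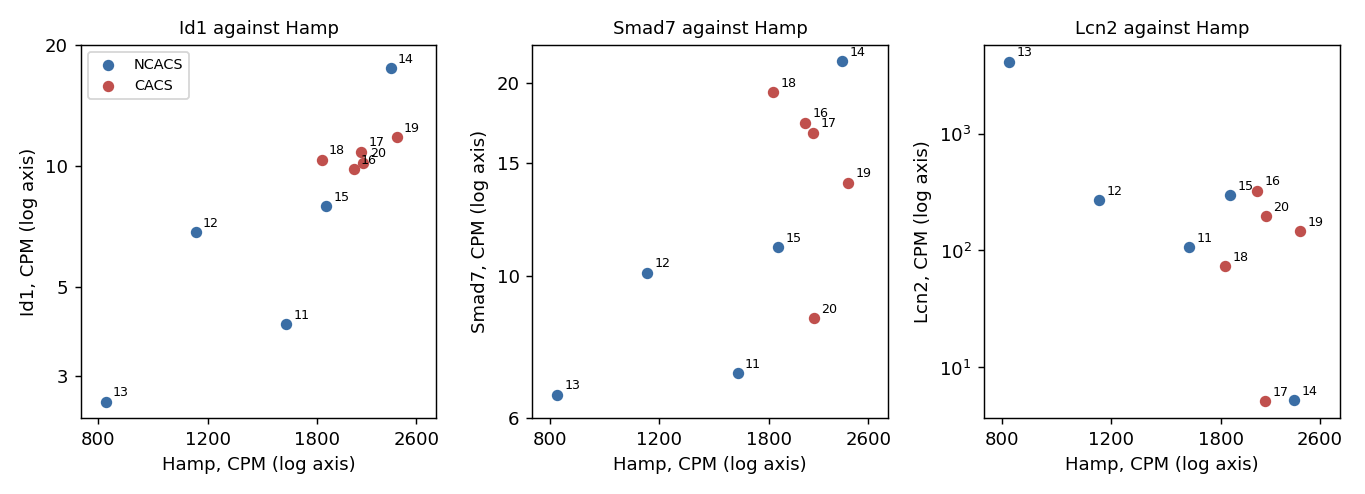
Levels of Id1, Smad7 and Lcn2 against Hamp in each liver, in TMM-normalized CPM on log axes, with mouse numbers beside the points and colours for NCACS and CACS. NCACS mouse 13 has the lowest Hamp and Id1 and the highest Lcn2, and NCACS mouse 14 has the highest Id1 and Smad7.

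Tmprss6 (ENSMUSG00000016942, chromosome 15, 78439667 to 78468634, reverse strand) encodes matriptase-2, a hepatocyte protease that lowers hepcidin transcription and has hemojuvelin as a substrate. Its level was 688.5, 614.0, 521.7, 584.8 and 526.4 CPM in NCACS mice 11 to 15, and 541.8, 506.9, 550.4, 617.5 and 590.2 CPM in CACS mice 16 to 20. The groups lay over one another, and the log2 fold change was -0.06 (SE 0.11, 95% interval -0.31 to 0.18, edgeR adjusted p = 0.787). Tfr2 (ENSMUSG00000029716, chromosome 5, 137569840 to 137587481, forward strand) encodes a transferrin receptor of hepatocytes that senses iron-loaded transferrin. Its level was 631.0, 568.7, 628.1, 411.7 and 516.6 CPM in NCACS mice, and 694.1, 453.4, 628.8, 685.4 and 724.2 CPM in CACS mice, with 3 CACS livers above the highest NCACS liver and CACS mouse 17 below the NCACS median. Its log2 fold change was 0.21 (SE 0.16, 95% interval -0.14 to 0.56, edgeR adjusted p = 0.479).

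Tfrc (ENSMUSG00000022797, chromosome 16, 32608920 to 32632794, forward strand) encodes transferrin receptor 1, which takes up transferrin-bound iron, and showed the largest difference among the 10. Its level was 15.96, 19.4, 21.99, 9.12 and 9.67 CPM in NCACS mice 11 to 15, and 22.5, 29.5, 17.5, 21.4 and 38.1 CPM in CACS mice 16 to 20. All 5 CACS livers lay above the NCACS median of 15.96 CPM and 3 lay above the highest NCACS liver. NCACS mice averaged 15.2 ± 5.74 CPM and CACS mice 25.8 ± 8.13 CPM (SD, n = 5 per group), a 1.69-fold difference. The fitted log2 difference was 0.76 (SE 0.28, 95% interval 0.16 to 1.36, unadjusted p = 0.0176, edgeR adjusted p = 0.136), with an exact permutation p of 0.0476 for this gene alone. No alternative brought its adjusted p under the threshold, the lowest being 0.0719 with DESeq2 and the highest 0.283. Erythroid precursors express much Tfrc, and 0 of the 4 tested erythroid markers passed the threshold, with a summed level of 224 to 456 CPM in NCACS and 283 to 477 CPM in CACS livers and with Epb42 and Slc4a1 at or near 0 in all livers. The part of such cells was not tested.

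Slc40a1 (ENSMUSG00000025993, chromosome 1, 45908068 to 45926523, reverse strand) encodes ferroportin, the cellular iron exporter, which hepatocytes and Kupffer cells both express. Its level was 204.0, 159.9, 108.5, 225.7 and 140.0 CPM in NCACS mice 11 to 15, and 245.3, 187.6, 240.1, 196.7 and 193.2 CPM in CACS mice 16 to 20. All 5 CACS livers lay above the NCACS median and 2 lay above the highest NCACS liver. In CACS relative to NCACS livers the difference was 0.34 on the log2 scale (SE 0.18, 95% interval -0.06 to 0.75, edgeR adjusted p = 0.305, exact permutation p = 0.103). It was 0.22 without NCACS mouse 13 and 0.47 without NCACS mouse 14. Log2 fold changes of Kupffer cell markers were below 0 for 10 of 10, with a median log2 fold change of -0.39 and 1 marker past the threshold (Cd5l, -0.90, edgeR adjusted p = 0.0374). Their summed level ran from 229 to 409 CPM in NCACS and from 148 to 313 CPM in CACS livers, the defining marker Clec4f had a log2 fold change of -0.11, and none was at 0. In whole liver, fewer cells of a type and less RNA per cell cannot be told apart, and the part of Kupffer cells in the Slc40a1 values was not tested.

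Ferritin mRNAs were abundant in every liver. Ftl1 (ENSMUSG00000050708, chromosome 7, 45457944 to 45459884, reverse strand) had 2070, 1582, 1442, 1627 and 1330 CPM in NCACS mice 11 to 15, and 1383, 1120, 1240, 1391 and 1410 CPM in CACS mice 16 to 20. All 5 CACS livers lay below the NCACS median of 1582 CPM, and 4 of the 5 NCACS livers lay above every CACS liver. On the log2 scale the difference was -0.30 (SE 0.14, 95% interval -0.61 to 0.01, edgeR adjusted p = 0.248, exact permutation p = 0.0556), and -0.19 without NCACS mouse 11, the highest. Fth1 (ENSMUSG00000024661, chromosome 19, 9980598 to 9985098, forward strand) had 1430, 1305, 1595, 1395 and 1427 CPM in NCACS mice, and 1434, 1317, 1469, 1140 and 1478 CPM in CACS mice. Its groups lay over one another, with a log2 fold change of -0.06 (SE 0.12, 95% interval -0.32 to 0.19, edgeR adjusted p = 0.796). Ferritin genes have near-identical copies, such as Ftl1-ps1, which was 99.6% identical to Ftl1 over 910 aligned bases. Its counts were 0.132% of those of Ftl1, which cannot show how many reads that fit both were left out. The level of Ftl1 carries that uncertainty.

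**Figure D3:**
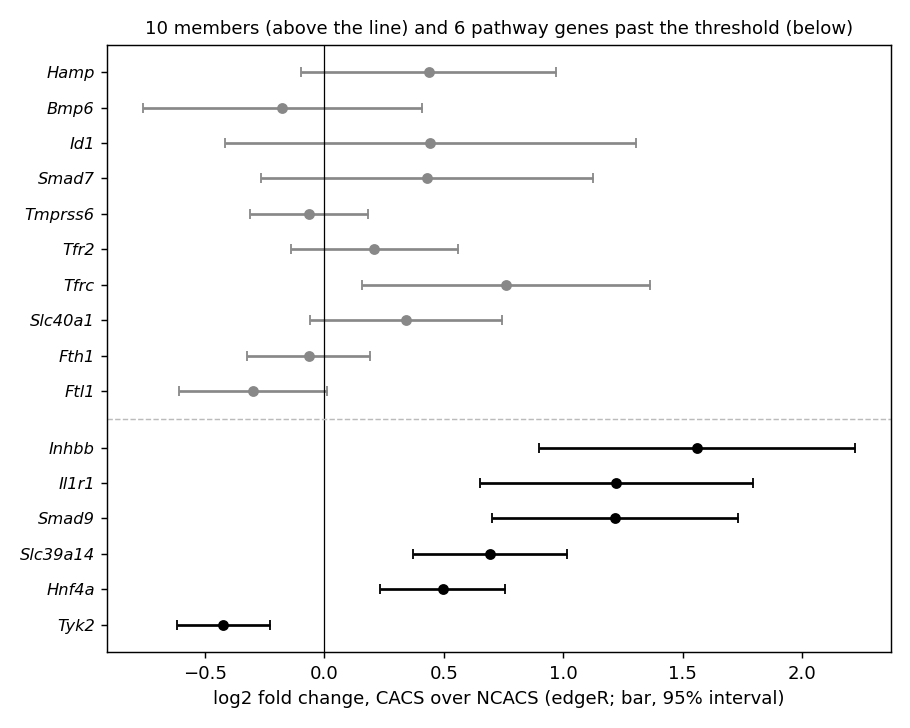
Log2 fold change (CACS over NCACS, edgeR) of the 10 genes above the dashed line and of the 6 pathway genes past the threshold below it, with 95% intervals. Among the 10 genes only the interval of Tfrc excludes 0 (0.16 to 1.36), before adjustment, and black points mark an adjusted p under 0.05.

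Levels were compared between genes as CPM per kb of the longest principal transcript. In NCACS livers the order was Hamp (3810 ± 1470), Ftl1 (1660 ± 292), Fth1 (957 ± 70.3), Tmprss6 (184 ± 21.6), Tfr2 (179 ± 29.7), Slc40a1 (49.7 ± 14.1), Id1 (8.32 ± 6.25), Tfrc (3.11 ± 1.17), Smad7 (2.64 ± 1.43) and Bmp6 (1.08 ± 0.469), each as mean ± SD over 5 livers. In CACS livers Tfr2 (207 ± 35.3) stood before Tmprss6 (176 ± 13.5), and the rest of the order was the same. Within a liver, Hamp exceeded Ftl1 in 10 of 10 livers, Tfr2 exceeded Tmprss6 in 6, Id1 exceeded Tfrc in 9, Tfrc exceeded Smad7 in 7 and Smad7 exceeded Bmp6 in 10. Parts of this order depended on the transcript chosen. With the 929-base Fth1 transcript, Fth1 was at 1540 ± 113 in NCACS livers, and Ftl1 exceeded it in 4 of 10 livers, against 10 of 10 with the 1494-base transcript. With the shortest principal transcripts Smad7 (8.08 ± 2.22 in CACS livers) stood above Tfrc in both groups, and Tfrc exceeded it in 2 of 10 livers, and Tfr2 (194 ± 32.1 in NCACS livers) stood above Tmprss6 in both groups and in 9 of 10 livers.

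**Figure D4:**
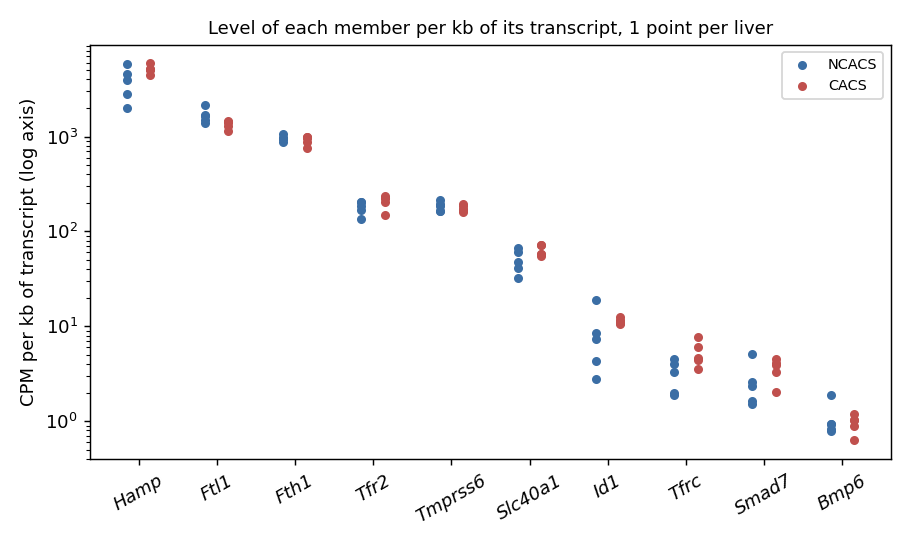
Level of each of the 10 genes in CPM per kb of its longest principal transcript (log axis), 1 point per liver, NCACS and CACS side by side. Hamp stands highest and Bmp6 lowest, and the points of Tfr2 and Tmprss6 overlap.

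The wider pathway was read from 8 lists of 132 genes, of which 122 were tested. Of these, 5 rose and 1 fell in CACS livers at an adjusted p under 0.05 in edgeR's test, which is 4.92%, near the 3.8% of all genes (1.89% higher and 1.92% lower). The median log2 fold change of the lists was -0.01, as it was over all genes. The groups did not overlap for 8 of the 122, against 7.07% of all tested genes. Bmpr1a, Steap2 and Cybrd1 were among them and did not pass in edgeR's test. Calls in these lists depended on single mice, with 0 genes past the threshold without NCACS mouse 14, 1 each without NCACS mouse 11, CACS mouse 16 or CACS mouse 20, and 2 without CACS mouse 19.

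In the BMP-SMAD list, 2 of 28 tested genes rose and 0 fell, against 1.89% and 1.92% of all tested genes. Inhbb, which encodes the subunit of activin B, a ligand that can raise hepcidin in inflammation, had 1.51, 1.74, 0.615, 1.39 and 1.42 CPM in NCACS mice 11 to 15, and 2.20, 3.23, 4.18, 5.61 and 4.58 CPM in CACS mice 16 to 20. The groups did not overlap, and the log2 fold change was 1.56 (SE 0.30, edgeR adjusted p = 0.0233), at 19 to 199 counts per liver. Smad9, a receptor-regulated SMAD, had 14.2, 14.9, 8.60, 12.6 and 10.3 CPM in NCACS mice and 38.5, 36.5, 26.7, 23.4 and 15.8 CPM in CACS mice, again with no overlap (log2 fold change 1.22, SE 0.24, edgeR adjusted p = 0.0233). Smad9 stayed past the threshold in 8 of the 10 fits that each left out a mouse, and Inhbb in 6. The BMP receptor gene Bmpr1a stood at a log2 fold change of -0.36 (edgeR adjusted p = 0.135) and Smad5 of 0.20 (adjusted p = 0.204), and neither passed in edgeR's test. The other named targets and regulators did not pass either, with log2 fold changes of 0.16 for Atoh8, 0.27 for Id2, 0.11 for Id3, 0.22 for the ligand gene Bmp2 and -0.26 for the inhibitory Smad6 (adjusted p between 0.471 and 0.854 in edgeR's test).

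The list of hepcidin control included partners at the hepatocyte surface, the gene of the plasma protein transferrin and Hamp2. Of its 9 tested genes, 0 passed the threshold. An unadjusted p under 0.05 in edgeR's test was found for 3, against 21.6% of all tested genes. Hfe2, which encodes the BMP co-receptor hemojuvelin, had 71.9, 61.8, 101.4, 61.5 and 99.4 CPM in NCACS mice 11 to 15, and 52.6, 55.3, 65.7, 39.8 and 58.3 CPM in CACS mice 16 to 20. CACS mouse 18 overlapped the 2 lowest NCACS livers, and the log2 fold change was -0.54 (95% interval -0.93 to -0.16, edgeR adjusted p = 0.105). Hfe, whose protein joins transferrin receptors and is lost in hereditary haemochromatosis, stood at a log2 fold change of -0.38 (edgeR adjusted p = 0.122), and Trf, the transferrin gene, of 0.19 (edgeR adjusted p = 0.664).

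In the list for the inflammatory input to hepcidin, 2 of 13 tested genes rose and 1 fell, against 1.89% and 1.92% of all tested genes. Il1r1, the receptor gene for IL-1, rose by 1.22 on the log2 scale (median 62.8 CPM in NCACS against 140.6 CPM in CACS mice, edgeR adjusted p = 0.0318), with CACS mouse 17 at 77.8 CPM inside the NCACS range of 45.2 to 84.7 CPM. Hnf4a, a hepatocyte transcription factor, rose by 0.50 (632.0 ± 42.5 and 891.5 ± 116 CPM, edgeR adjusted p = 0.0435) with no overlap between groups. The kinase gene Tyk2 fell by 0.42 (32.7 ± 2.82 and 24.4 ± 2.03 CPM, edgeR adjusted p = 0.0314), also with no overlap. Il6 itself had 0 to 3 counts per liver and was not tested. The IL-6 receptor gene Il6ra stood at a log2 fold change of 0.58 (edgeR adjusted p = 0.185), Jak2 of -0.19 (adjusted p = 0.325), Stat3 of 0.11 (adjusted p = 0.782) and Socs3, a STAT3 target, of 0.27 (adjusted p = 0.769), none past the threshold in edgeR's test. In the fits that each left out a mouse, Il1r1 passed in 4 of 10, Tyk2 in 2 and Hnf4a in 1.

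In the list of iron uptake, export and storage genes, 1 of 21 tested genes rose and 0 fell, against 1.89% and 1.92% of all tested genes. Slc39a14 encodes ZIP14, which carries iron that is not bound to transferrin into hepatocytes. It had 317.2, 365.1, 359.9, 273.5 and 229.9 CPM in NCACS mice 11 to 15, and 512.3, 412.6, 467.3, 557.6 and 550.5 CPM in CACS mice 16 to 20, and the groups did not overlap. The fitted log2 difference was 0.69 (SE 0.15, 95% interval 0.37 to 1.02, edgeR adjusted p = 0.0311), and it passed the threshold in 5 of the 10 fits that each left out a mouse. The ferric reductase gene Cybrd1 was scarce, averaging 1.01 ± 0.450 CPM over NCACS mice against 0.251 ± 0.205 CPM over CACS mice (SD, n = 5), with 1 to 60 counts per liver. Its log2 fold change was -1.97 (adjusted p = 0.0652 in edgeR's test and 0.00631 in DESeq2), with no overlap between groups. The metalloreductase gene Steap2 stood at a log2 fold change of 0.65 (edgeR adjusted p = 0.119), the importer gene Slc11a2 of -0.11 (adjusted p = 0.801), the ferroxidase gene Cp of -0.20 (adjusted p = 0.672) and the ferritin receptor for autophagy, Ncoa4, of 0.26 (adjusted p = 0.376), none past the threshold in edgeR's test.

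**Figure D5:**
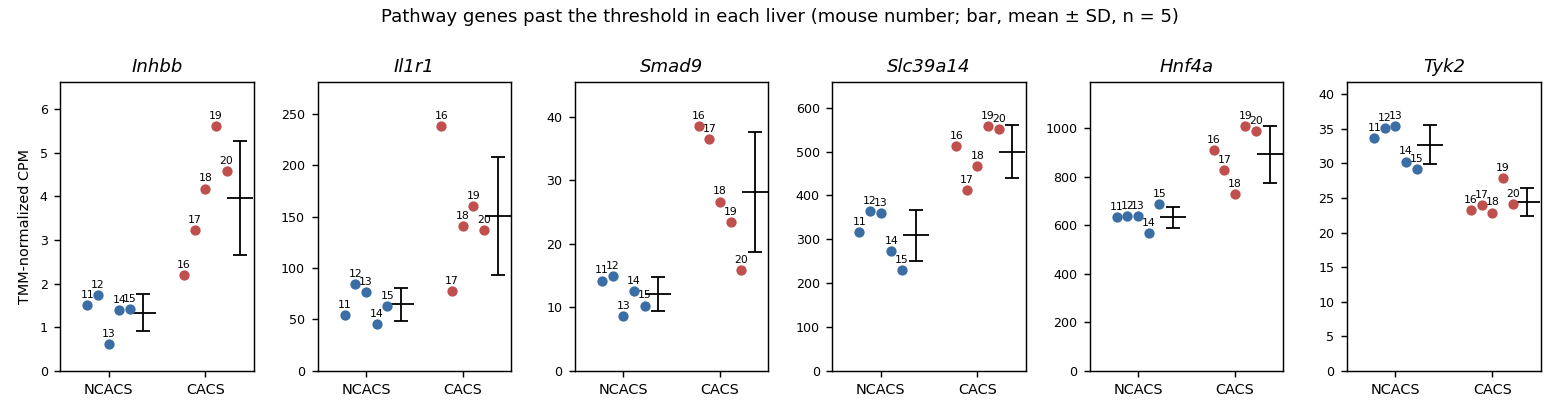
TMM-normalized CPM (linear axis from 0) of the 6 pathway genes with an adjusted p under 0.05, by liver and mouse number, with group mean and SD (n = 5) beside the points. Inhbb, Smad9, Slc39a14 and Hnf4a are higher and Tyk2 lower in all 5 CACS livers than in any NCACS liver, and CACS mouse 17 overlaps the NCACS livers for Il1r1.

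The genes of the iron regulatory proteins and their control, 6 tested, held 0 that rose and 0 that fell. Aco1, which encodes iron regulatory protein 1, stood at a log2 fold change of -0.11 (edgeR adjusted p = 0.639) and Ireb2, which encodes iron regulatory protein 2, of -0.32 (adjusted p = 0.287), while Fbxl5, whose product marks the latter for degradation, had -0.29 (adjusted p = 0.225), all in edgeR's test. Of 18 iron–sulfur assembly genes, 0 passed, and the smallest p-values belonged to Nubp1 (0.24) and Hscb (-0.40), with adjusted p of 0.162 and 0.229 in edgeR's test.

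The 5 genes most like Hamp among 9234 tested genes with a mean of at least 5 CPM, by Pearson r over the 10 livers after subtraction of group means, were Fech (0.969), Pcmtd1 (0.954), Ythdf3 (0.945), Prmt9 (0.944) and Ube3a (0.943). Fech encodes ferrochelatase, which inserts iron into haem. Its level was 174.5, 160.0, 144.9, 186.3 and 181.7 CPM in NCACS mice 11 to 15 and between 166.6 and 175.8 CPM in CACS mice, with a log2 fold change of 0.01 (edgeR adjusted p = 0.961). In the 5 NCACS livers the order of Fech was that of Hamp, with mouse 13 lowest and mouse 14 highest. By this measure, counted from the highest r among the 9234 genes, Id1 ranked 160, Atoh8 382, Smad7 1472, Id3 2065, Id2 2753 and Tfrc 8845. Bmp6 lay under a mean of 5 CPM and was not ranked. Without NCACS mice 13 and 14 the r of Fech and Hamp was 0.91 over 8 livers, and without NCACS mice 12 and 13 it was 0.80. Fech was picked for the largest r among 9234 genes in the same livers, so these values are not an independent check.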

How the data were processed

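RNA was extracted from liver with TRIzol and made into Illumina TruSeq Stranded mRNA libraries. The authors aligned reads to GRCm38 with STAR 2.4.1d, counted them per gene with HTSeq 0.6.1 and deposited raw counts, with no normalization. The annotation release and strand setting are not given in the sources used here. Of 43629 identifiers, 1081 had no GENCODE M21 entry, and 0 count columns were left unused.

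Counts were filtered with filterByExpr, given TMM factors and fitted by quasi-likelihood in edgeR 4.0.16 (R 4.3.3) on 5 and 5 livers, with Benjamini-Hochberg adjustment over 14143 genes and a threshold of 0.05. Log2 CPM used a prior count of 2, standard errors are the log2 fold change over the root of F, and 95% intervals use moderated degrees of freedom. Single genes were also tested by two-sided exact permutation. Scripts were tested on simulated data. Any pair of livers in a group differed far beyond counting noise (chi-square over its degrees of freedom at least 46.1), and each liver counted once.

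Genes named were the 10 members, list genes past the threshold, the 2 next by p in each list, fixed partners, and the 5 most like Hamp. The members and lists were chosen with earlier results of these data known. Lcn2, Hp, Hpx and Alas1 were named after their values were seen. Alternatives were DESeq2 1.42.0, limma-voom (limma 3.58.1), RLE factors, upper-quartile factors, unscaled totals, every gene kept, a minimum of 10 counts per liver, each mouse left out, copies added, and scaling to hepatocyte markers. Hairpins and alignments used Biopython 1.88. The labels give no preparation batch. A list gene that the naming rule selects, a marker gene and part of the genotype are not reported here.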

Additional observations from a re-analysis of the deposited data

Results flagged for a closer look

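For 92 pairs of a named gene and a group, the highest and the lowest of the 5 livers were examined for distance from the rest, by the gap to the nearest liver over the range of the group in log2 CPM. Chance gives about 1 in 20, and 5 were found. Bmp6 was high in NCACS mouse 14 (gap over range 0.789). Inhbb was low in NCACS mouse 13 (0.779), and Bmpr1a was high in NCACS mouse 15 (0.929). In CACS livers, Tyk2 was high in mouse 19 (0.731) and Bmp2 was low in mouse 20 (0.846).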

How the results depend on the processing

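No paired analysis was made, because the labels give no pairing between NCACS mice (numbered 11 to 15) and CACS mice (numbered 16 to 20). No member had an adjusted p under 0.05 in any of the 17 alternatives fitted across all genes, by edgeR, DESeq2 or limma-voom. Of 183 member values under alternatives, 181 kept their direction. Bmp6 turned to 0.13 without NCACS mouse 14 (range -0.27 to 0.13 over the fits that each left out a mouse), and Tfr2 was -0.02 relative to the hepatocyte markers. The hepatocyte markers were 0.22 higher in CACS livers on the log2 scale, and relative to them Fth1 was at -0.29, Ftl1 at -0.51 and Tmprss6 at -0.28, by the construction of that scale. The remaining members were at 0.57 (Tfrc), 0.52 (Id1), 0.30 (Hamp), 0.29 (Smad7), 0.16 (Slc40a1) and -0.34 (Bmp6) relative to these markers. The other scalings moved the median of all genes by less than 0.1.

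The number of genes past the threshold was 538, and 1376 with DESeq2, for which the cause was not tested. Over the fits that each left out a mouse, which have fewer samples, it ran from 178 to 519, and the number of pathway genes ran from 0 to 5 (6 over all livers, 7 with DESeq2, and 5 without a filter or with raw library totals). Depth limits Bmp6, Id1 and Inhbb, whose lowest counts per liver were 79, 80 and 19. Which livers to leave out of the correlations with Hamp was chosen after seeing the data. NCACS mice 12 and 13 had the Hamp farthest from the median before centring. Leaving them out gave r = 0.86 for Id1, in place of 0.09 without mice 13 and 14. Without mice 12 and 13 r was 0.48 for Smad7, 0.39 for Bmp6, 0.55 for Atoh8, -0.16 for Id2, 0.65 for Id3 and -0.26 for Tfrc.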

Other observations

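Genes of haem handling were measured in the same livers. Of 15 genes for scavenging, export and breakdown of haem, 0 passed the threshold, and Abcg2 (-0.61), which encodes an exporter, and Hmox1 (-0.50), which encodes haem oxygenase 1, had the smallest p-values (adjusted p = 0.130 and 0.204 from edgeR's test). Of 12 haem synthesis genes, 0 passed. Slc25a38, which encodes a mitochondrial glycine carrier, had a log2 fold change of 0.38 and Alad, which encodes the enzyme of the second step, of -0.55 (adjusted p = 0.123 and 0.125 from edgeR's test). Alas1, the rate-limiting enzyme of hepatic haem synthesis, had 667.7, 585.6, 320.1, 183.1 and 66.8 CPM in NCACS mice 11 to 15 and 710.4, 663.0, 605.7, 1756 and 851.2 CPM in CACS mice 16 to 20 (log2 fold change 1.33, adjusted p = 0.172 from edgeR's test), with 3 CACS livers above the highest NCACS liver.

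The acute-phase iron and haem binders varied between mice within the groups. Lcn2, which encodes a binder of bacterial siderophores, had 4117 CPM in NCACS mouse 13, the liver with the lowest Hamp, and 5.24 CPM in NCACS mouse 14, the liver with the highest NCACS Hamp. Hp and Hpx, which encode haptoglobin and hemopexin, had 22130 and 28620 CPM in mouse 13 and 1930 and 3664 CPM in mouse 14. CACS mouse 17 had 5.14 CPM of Lcn2 and 2121 CPM of Hamp. Pearson r with Hamp was taken over the 10 livers after group means were subtracted. It was -0.70 for Lcn2 (Spearman's rho -0.43), -0.69 for Hp (rho -0.38) and -0.66 for Hpx (rho -0.39). Over 8 livers without NCACS mice 13 and 14, r was 0.01, 0.23 and 0.26. Without NCACS mice 12 and 13 it was -0.40, -0.47 and -0.35, so these values depended on which livers were left out. The values share their libraries, and the relation was noticed after the data had been seen. The summed level of 8 neutrophil genes ran from 4.16 to 19.5 CPM in NCACS and from 2.39 to 6.25 CPM in CACS livers. Of these genes 3 passed the filter on low counts, all with a log2 fold change below 0 (-1.79 to -1.03). All 3 had an unadjusted p under 0.05 in edgeR's test, against 21.6% of all tested genes. At the threshold 0 of them passed (edgeR adjusted p between 0.111 and 0.229). The summed level of the erythroid markers ran from 224 to 456 CPM in NCACS and from 283 to 477 CPM in CACS livers, with Hba-a2 at 0 in 3 livers and at 11.6 CPM in NCACS mouse 14.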
